A study of Mus musculus with 32 samples.

Results

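The data described here are the amygdala transcriptomes of adult male mice heterozygous for *Kmt2a* (*Kmt2a*-HET) and of their wildtype (WT) counterparts. All libraries labelled *Kmt2a*-HET or WT from the amygdala were taken, which gave 4 *Kmt2a*-HET and 4 WT libraries among the 32 libraries of the series. The series holds 4 genotypes, WT, *Kmt2a*-HET, *Kdm5c*-KO and the double mutant DM (*Kmt2a* heterozygous and *Kdm5c*-null), each with 4 mice and each with an amygdala and a hippocampus library. The mice were F1 hybrids (129xB6) from 129S1/SvImJ *Kmt2a*-HET sires and C57BL/6J dams heterozygous for *Kdm5c*, so every mouse of every group carried one genome of each strain. The *Kmt2a*-HET mice carried 1 copy of *Kmt2a* without exons 8 and 9, obtained from a conditional allele by Cre recombination, and an intact *Kdm5c*. WT mice carried neither mutation. The allele was not restricted to neurons in the crosses described, so a difference in the amygdala is not limited to 1 cell type by the model. Each library is bulk tissue, and fewer cells of a type and less RNA per cell cannot be told apart in it.

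KMT2A is a histone methyltransferase that places methyl groups on lysine 4 of histone H3 (H3K4), a modification found at active promoters and enhancers. It acts in a complex with WDR5, RBBP5, ASH2L and DPY30 and is tethered to chromatin by menin, and it is best known for keeping homeobox genes expressed during development. Loss of 1 copy in humans causes Wiedemann–Steiner syndrome, which includes intellectual disability. KDM5C removes methylation from the same residue. The amygdala is the group of temporal lobe nuclei in which threat learning and much of social and aggressive behaviour are organised.

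The comparison asked which mRNAs of the amygdala differed in level between *Kmt2a*-HET and WT mice. The 8 libraries held between 20014675 and 26033593 gene counts, and between 21731 and 23216 genes had at least 1 count in a library. Of 18 genes chosen as markers of amygdala neurons, 12 had a higher median in these 8 libraries than in the 8 hippocampal libraries of the same mice, and 7 were higher in every amygdala library than in every hippocampal library, among them *Dlk1*, *Foxp2*, *Meis2* and *Slc17a6*. The median was lower in the amygdala for the other 6, and 4 of them, *Slc17a7*, *Neurod6*, *Etv1* and *Cdh9*, were lower in every amygdala library than in every hippocampal library. No defining marker in that list was absent. WT replicate 1 stood apart before any comparison between genotypes was made: on the first principal component of the 500 most variable genes, which held 53.5% of their variance, it lay at 23.2 and the other 7 libraries between -8.61 and -1.54. Its summed normalised count of striatal markers was 21613, against 49036 to 100472 in the other WT libraries and 34136 to 66388 in *Kmt2a*-HET, and its sum of mature oligodendrocyte markers was 61245, against 108804 to 173372 in the other 7. The 4 WT libraries differed among themselves more than the 4 *Kmt2a*-HET libraries did (mean chi-square per gene of 14.5 to 124 over pairs of WT libraries and of 3.75 to 17.7 over pairs of *Kmt2a*-HET libraries), and no pair agreed within sampling noise.

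*Kmt2a* itself did not separate the groups at the level of the whole gene. The gene lies on the minus strand of chromosome 9 (mm10, 44803355 to 44881296). Its normalised count, the count divided by the size factor of the library, was 2163, 4869, 4141 and 5639 in WT replicates 1 to 4 and 3547, 4613, 4367 and 4437 in *Kmt2a*-HET replicates 1 to 4. All 4 *Kmt2a*-HET values lay inside the WT range. The log2 fold change of *Kmt2a*-HET over WT was 0.01 ± 0.24 (SE, n = 4 per group, exact two-sided permutation test p = 0.886), with a 95% interval of -0.45 to 0.48. Without WT replicate 1 the value was -0.20.

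The deleted exons are a small part of the gene that was counted, and they are shown for that reason. Counted along the longest annotated *Kmt2a* transcript (ENSMUST00000002095.10, GENCODE M21, 36 exons), exon 8 spans 44842310 to 44842383 (74 bases) and exon 9 spans 44841563 to 44841694 (132 bases) of chromosome 9. Both are coding. In the lines below the exon is in capitals, and the 10 bases of the neighbouring exon on each side are in lower case. All bases are written in the sense of the mRNA of the reference transcript.
*Kmt2a* exon 8: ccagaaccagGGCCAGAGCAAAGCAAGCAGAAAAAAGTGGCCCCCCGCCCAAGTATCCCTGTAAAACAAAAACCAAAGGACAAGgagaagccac
*Kmt2a* exon 9: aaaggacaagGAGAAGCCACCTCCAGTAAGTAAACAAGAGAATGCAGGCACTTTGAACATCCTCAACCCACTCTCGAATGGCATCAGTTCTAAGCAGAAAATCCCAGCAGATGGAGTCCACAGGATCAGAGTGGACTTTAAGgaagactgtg
Together they make up 206 of 16461 bases, or 1.25% of the transcript, and 206 leaves a remainder of 2 when divided by 3. Counts per exon are not part of the tables used here, so the deletion was not measured directly. This transcript carried most of the gene's expected counts, with a normalised count of 3683 ± 1419 (SD, n = 4) in WT and 3779 ± 299 in *Kmt2a*-HET. The numbering assumes that the allele was named along this transcript.

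**Figure D1:**
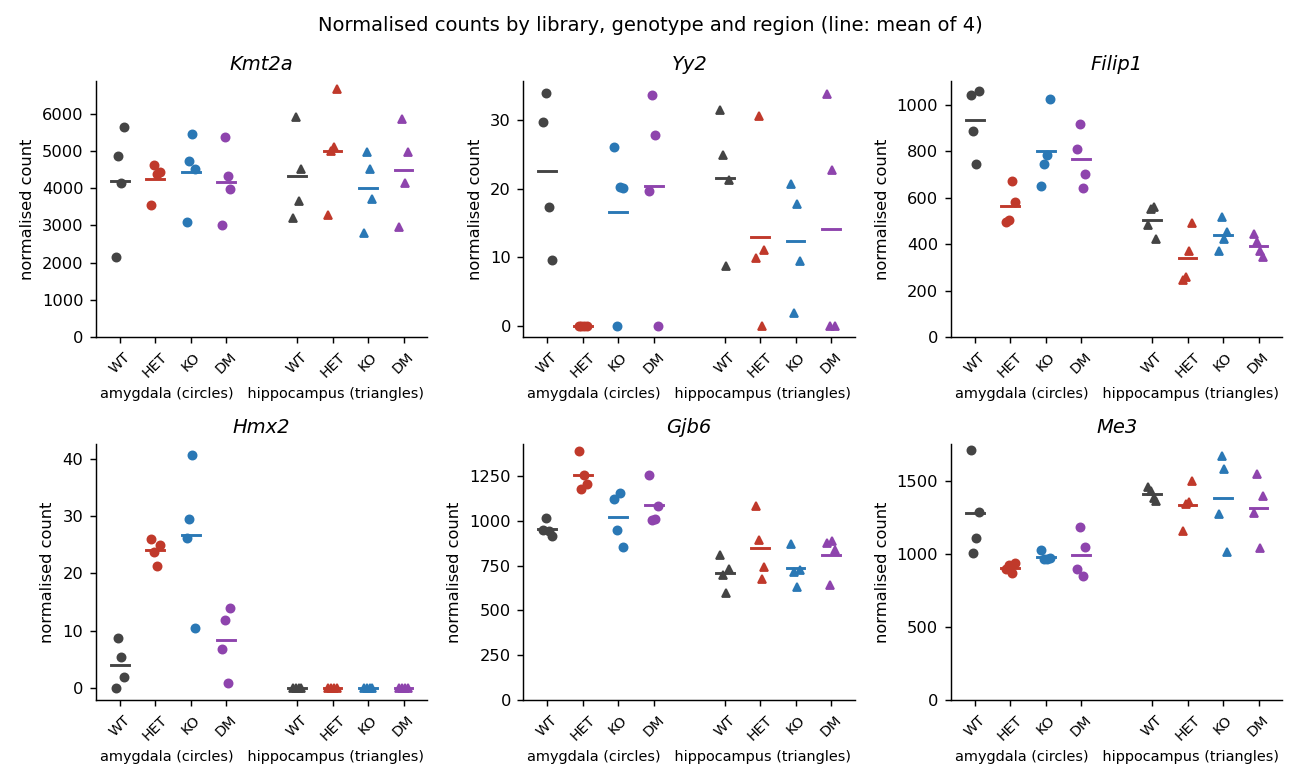
Normalised counts (vertical axis, from 0) of 6 genes in every amygdala library (circles) and every hippocampal library (triangles) of the 4 genotypes, with a line at the mean of 4. *Kmt2a* overlaps between WT and HET (*Kmt2a*-HET) amygdala, *Yy2* is at 0 in the 4 *Kmt2a*-HET amygdala libraries and in some libraries of other groups, and *Filip1* is below WT in all 4 *Kmt2a*-HET amygdala libraries.

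Across the genome the difference between the groups was small. Of 30355 genes tested, 1 passed an adjusted p of 0.1 (0.00329%), against 926 (3.05%) at an unadjusted p under 0.05, 537 of them lower and 389 higher in *Kmt2a*-HET. The edgeR quasi-likelihood test called no gene among the 17538 it tested and had 732 at an unadjusted p under 0.05. The median log2 fold change over all genes tested was -0.04. Without WT replicate 2 the number of genes past an adjusted p of 0.1 was 82, of which 49 were lower, and in the other 7 fits that left out 1 of the 8 libraries it was between 0 and 3.

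The gene that passed was *Yy2*, which encodes a zinc finger transcription factor that arose as a copy of *Yy1*. Its normalised count was 29.7, 34.0, 17.2 and 9.56 in WT and 0 in all 4 *Kmt2a*-HET libraries (adjusted p = 0.0110 by DESeq2). With 3 counts as the floor of the group, the mean of 22.6 ± 11.2 (SD, n = 4) in WT was at least 7.54-fold higher than in *Kmt2a*-HET. The adjusted threshold was passed in 1 of the 8 fits that left out a library, and edgeR did not call the gene. *Yy2* lies inside another gene, and the part that the division of reads between them has in this value was not tested. It is a single exon of 2867 bases on chromosome X (157566119 to 157568985), on the same strand as *Mbtps2* (157535371 to 157598715), which encodes a protease of the Golgi, and all 2867 bases also belong to exons of *Mbtps2*. The pair of *Mbtps2* transcripts that hold the whole *Yy2* exon had summed normalised counts of 5.95, 0, 21.1 and 43.4 in WT and 34.1, 30.2, 24.7 and 35.4 in *Kmt2a*-HET, so they were low where *Yy2* was high. Adding *Yy2* to them gave 40.0 ± 8.56 in WT and 31.1 ± 4.83 in *Kmt2a*-HET (exact two-sided permutation test p = 0.143), and the groups then overlapped. *Mbtps2* as a whole was at 400 to 501 in WT and 422 to 524 in *Kmt2a*-HET. *Yy2* was also at 0 in 2 of the 8 amygdala libraries of *Kdm5c*-KO and DM and in 3 of the 16 hippocampal libraries, which included 1 *Kmt2a*-HET library. *Yy1*, whose protein binds many promoters, was at 2159 to 2382 in WT and 1998 to 2222 in *Kmt2a*-HET (log2 fold change -0.08 ± 0.07, not past 0.05).

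A relaxed threshold, an unadjusted p under 0.005, gave 87 genes (0.287% of those tested), called 2A-DEGs here. Of these, 59 were lower (0.194%) and 28 higher (0.0922%) in *Kmt2a*-HET, and 66 were protein coding. Evenly spread p-values, as with no difference between groups, would put a fraction of 0.005 of all genes there, more than was found. The share at an unadjusted p under 0.05, 3.05%, was likewise below a fraction of 0.05. The 2A-DEGs are therefore described as values, not as established differences. The median log2 fold change was -0.53 for the lower genes and 0.71 for the higher genes, and 30 of the lower and 13 of the higher genes differed by less than 1.5-fold. In 53 of the 87 the 4 *Kmt2a*-HET values did not overlap the 4 WT values (30 lower and 23 higher), as in 1.88% of all genes tested (0.903% lower and 0.978% higher). For every gene without overlap the exact two-sided permutation test gives p = 0.0286, the smallest it can give with 4 libraries in each group. None of the 2A-DEGs apart from *Yy2* passed the adjusted threshold: the adjusted p was 0.144 for *Filip1*, 0.200 for *E130208F15Rik*, 0.425 for *Hmx2* and 0.998 for each of the other 2A-DEGs named below. WT replicate 1 was the highest of the 8 libraries in 35 of the 59 lower genes and the lowest of the 8 in 16 of the 28 higher genes, and without it 94 genes were below 0.005, of which 26 were among the 87. WT replicate 2 was the lowest WT library in 33 of the 59 lower genes. The last gene inside the threshold was the predicted gene *Gm49388* (at 81.1, 40.8, 86.2 and 0 in WT and 0 in all 4 *Kmt2a*-HET libraries), and the first outside was *Cdk17* (log2 fold change -0.32), with p of 0.00490 and 0.00505.

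**Figure D2:**
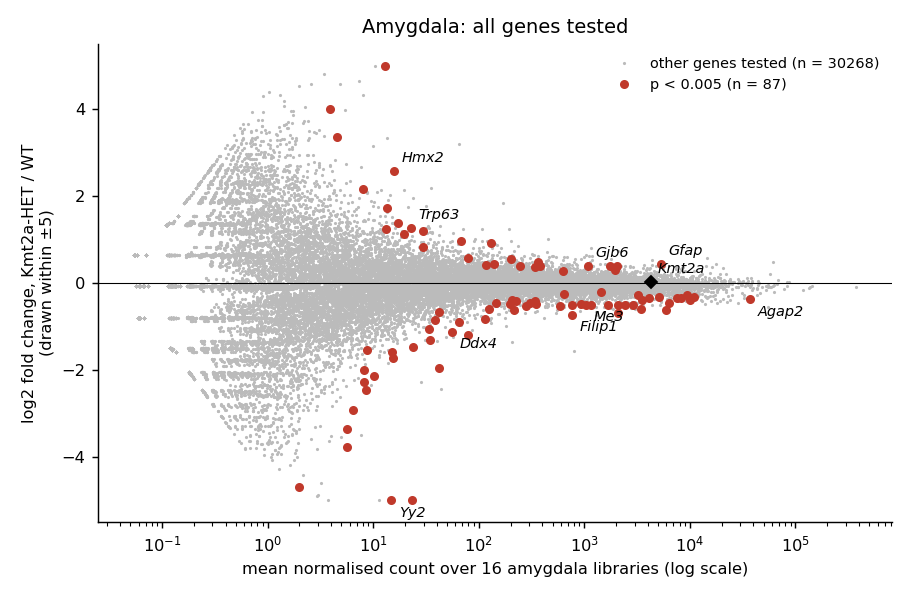
Log2 fold change of *Kmt2a*-HET over WT amygdala (vertical axis, drawn within ±5) against mean normalised count over the 16 amygdala libraries (horizontal log axis) for the 30355 genes tested. The 87 genes with p under 0.005 are in red, most of those above a count of 100 lie within a log2 fold change of 1 in either direction, and *Kmt2a* (black diamond) lies near 0.

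*Filip1* had the smallest p of the lower genes after *Yy2*. It encodes a filamin A binding protein that promotes the breakdown of filamin and restrains the migration of cortical neurons. The normalised count was 1040, 887, 744 and 1061 in WT and 498, 504, 670 and 581 in *Kmt2a*-HET, with no overlap. This is a log2 fold change of -0.73 ± 0.16 (SE, n = 4), and it stayed between -0.82 and -0.66, with p under 0.005, whichever of the 8 libraries was left out. With ERCC size factors it was -0.57 and not past 0.005, and none of the 21 genes selected by rule, apart from *Kmt2a*, then stayed past its threshold. When both libraries numbered 1 were left out, *Filip1* (-0.62) and *Zbtb8a* stayed past their threshold and the other 19 did not. *Filip1* is on chromosome 9 (79815051 to 80012851), the chromosome of *Kmt2a*, and shares no exon bases with another gene on its strand. Of the 214 genes tested within 5 Mb of *Kmt2a*, a window that does not reach *Filip1*, 4 (1.87%) had p under 0.05, *C2cd2l*, *Nlrx1*, *Apoa1* and *Gm30015*, 3 of them lower. Over all genes tested 3.05% had p under 0.05.

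Among the other lower 2A-DEGs were enzymes and transporters. *Me3*, the mitochondrial NADP-dependent malic enzyme, was at 1713, 1007, 1110 and 1290 in WT and 901, 922, 868 and 936 in *Kmt2a*-HET. Its log2 fold change of -0.50 ± 0.14 became -0.32 without WT replicate 1, the highest library, and stayed past 0.005 in all 8 fits that left out a library, but not without both libraries numbered 1. *Slc40a1*, which encodes the iron exporter ferroportin, was at 296, 225, 229 and 210 in WT and 150, 205, 180 and 150 in *Kmt2a*-HET (log2 fold change -0.49 ± 0.15), and was at -0.37 and no longer past 0.005 without WT replicate 1. *Pigb*, a mannosyltransferase of glycosylphosphatidylinositol anchor synthesis, was at 660 to 748 in WT and 586 to 612 in *Kmt2a*-HET (-0.25 ± 0.08), and was not past 0.005 without WT replicate 1, WT replicate 2 or *Kmt2a*-HET replicate 2. It overlaps *Ccpg1* on the opposite strand.

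Genes of signalling and axon guidance were also among the lower 2A-DEGs. *Sema3a* encodes a secreted semaphorin that repels growing axons. Its count was 384, 426, 417 and 460 in WT and 272, 296, 290 and 341 in *Kmt2a*-HET, each *Kmt2a*-HET value below each WT value (log2 fold change -0.49 ± 0.15), and it passed 0.005 in 5 of the 8 fits that left out a library (not without WT replicate 4, *Kmt2a*-HET replicate 1 or *Kmt2a*-HET replicate 3). *Eda*, the ligand ectodysplasin A, was at 153 to 201 in WT and 124 to 134 in *Kmt2a*-HET (-0.46 ± 0.16), and this passed 0.005 in only 1 of the 8 fits that left out a library. *Speg*, a kinase of the myosin light chain family known from striated muscle, was at 4804 to 6213 in WT and 4367 to 4582 in *Kmt2a*-HET (-0.32 ± 0.11), and it passed 0.005 in 2 of those 8 fits.

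The nuclear and low-abundance genes of this group moved further on the log scale with fewer counts. *Zbtb8a*, a zinc finger protein of the BTB family, was at 83.1, 80.6, 70.1 and 110 in WT and 50.3, 36.1, 55.9 and 42.6 in *Kmt2a*-HET (-0.89 ± 0.27), and did not pass 0.005 without WT replicate 4, *Kmt2a*-HET replicate 2 or *Kmt2a*-HET replicate 4. *Nfkbid*, a nuclear regulator of NF-kappa-B, was at 79.1, 37.9, 28.03 and 37.3 in WT and 25.2, 15.8, 27.5 and 18.5 in *Kmt2a*-HET (-1.06 ± 0.35), and at -0.65 and not past 0.005 without WT replicate 1. *Ddx4*, the germ cell RNA helicase VASA, was at 113, 37.9, 33.4 and 35.4 in WT and 29.5, 24.8, 22.2 and 24.1 in *Kmt2a*-HET. The log2 fold change of *Ddx4* was -1.13 ± 0.35, but -0.50 and not past 0.05 without WT replicate 1, which stood far above the other libraries.

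*Sept2*, which encodes a septin of the cytoskeleton, also overlaps another gene on its strand. The gene ENSMUSG00000026276.20 was at 591 to 905 in WT and 371 to 575 in *Kmt2a*-HET (-0.53 ± 0.17). Of its 7979 exon bases, 3335 also belong to a second gene with the same symbol, ENSMUSG00000116048.1, which was at 391 to 585 in WT and 530 to 716 in *Kmt2a*-HET, the opposite order. The sum of both was 1188 ± 207 (SD, n = 4) in WT and 1105 ± 48.5 in *Kmt2a*-HET, with *Kmt2a*-HET inside the WT range. Among the 21 genes drawn in the plot of each library relative to the WT mean, only *Yy2* and *Sept2* share exon bases with an annotated gene on the same strand.

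*Gjb6*, *Padi2* and *Pmp22* were among the higher 2A-DEGs. *Gjb6* encodes connexin 30, a gap junction protein of astrocytes. It was at 949, 1015, 941 and 913 in WT and 1389, 1174, 1254 and 1204 in *Kmt2a*-HET (log2 fold change 0.40 ± 0.11), with p under 0.005 in all 8 fits that left out a library but not without both libraries numbered 1 (0.34). *Padi2*, a peptidylarginine deiminase that converts arginine to citrulline in myelin and histone proteins, was at 1217, 1886, 1628 and 1756 in WT and 2050, 2324, 2084 and 2072 in *Kmt2a*-HET (0.39 ± 0.13). *Pmp22*, a membrane protein of compact myelin in peripheral nerve, was at 260 to 420 in WT and 422 to 524 in *Kmt2a*-HET (0.48 ± 0.16). Both stood lowest in WT replicate 1, and without it *Padi2* was at 0.28 and *Pmp22* at 0.38, neither past 0.005.

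The remaining higher genes selected were a receptor, regulators of growth factor signalling and trafficking, and a transcription factor. *Lrig1*, a transmembrane inhibitor of growth factor receptors, was at 1530 to 1992 in WT and 2234 to 2380 in *Kmt2a*-HET (0.31 ± 0.10). *Snx9*, a sorting nexin of endocytosis, was at 169 to 230 in WT and 248 to 280 in *Kmt2a*-HET (0.39 ± 0.12), and *St5*, now also named *Dennd2b*, was at 263 to 369 and 391 to 478 (0.39 ± 0.12). *P2rx6*, a subunit of ATP-gated cation channels, was at 50.7 to 67.0 in WT and 71.4 to 98.0 in *Kmt2a*-HET (0.59 ± 0.20). *Trp63*, the p53 family transcription factor p63, was at 6.92, 21.4, 8.62 and 16.3 in WT and 30.4, 21.5, 39.9 and 36.1 in *Kmt2a*-HET (1.26 ± 0.37), where the lowest *Kmt2a*-HET library and the highest WT library differed by less than 1 count. Without WT replicate 1 the unadjusted p-values of these 5 genes lay between 0.00509 and 0.0147.

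**Figure D3:**
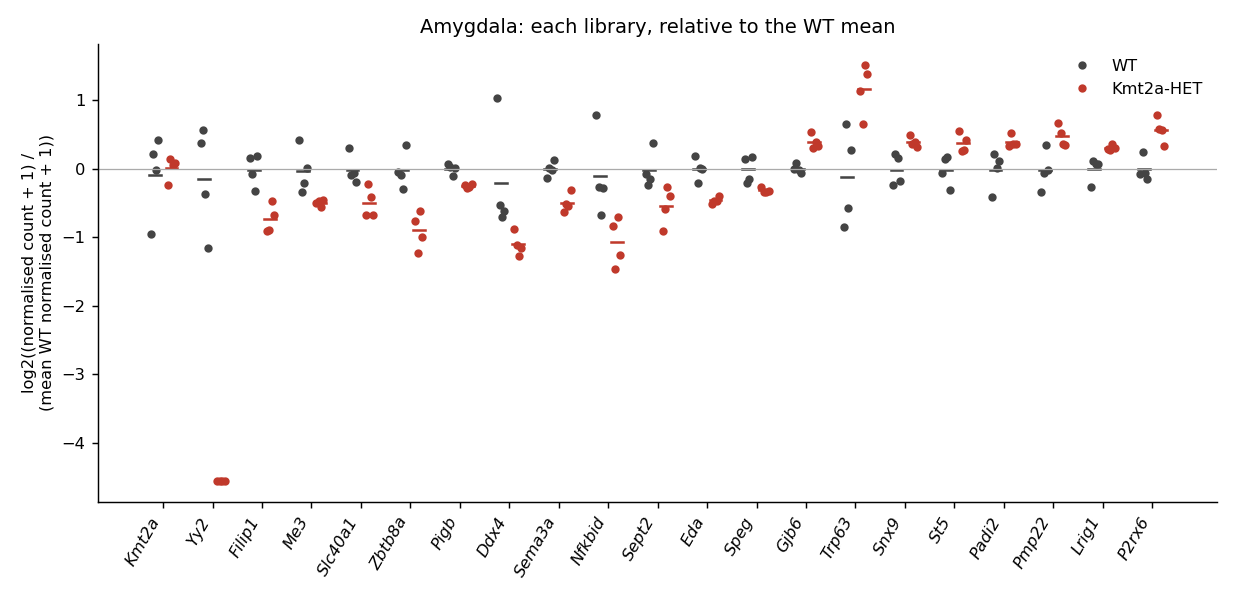
Each amygdala library of WT (grey) and *Kmt2a*-HET (red) as log2 of its normalised count plus 1 over the WT mean plus 1 (vertical axis), with a line at the mean of 4, for *Kmt2a*, *Yy2*, 11 further lower and 8 higher 2A-DEGs. *Kmt2a* overlaps between groups, the 20 other genes do not by the rule that selected them, and *Ddx4* and *Nfkbid* show 1 WT library far above the other 3.

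Further 2A-DEGs were picked after their values were seen, because they act at synapses. In 5 of them WT replicate 1 was the highest library and WT replicate 2 lay next to the *Kmt2a*-HET values. *Kcnh3*, a voltage-gated potassium channel of forebrain neurons, was at 6269, 2665, 3675 and 3986 in WT and 2826, 2798, 2743 and 2679 in *Kmt2a*-HET (-0.59 ± 0.18). *Icam5*, the dendritic adhesion molecule telencephalin, was at 11936, 4721, 6175 and 6280 in WT and 4495 to 5068 in *Kmt2a*-HET (-0.61 ± 0.21). *Chrm1*, the M1 muscarinic acetylcholine receptor, was at 5076, 2449, 3159 and 2858 in WT and 2089 to 2651 in *Kmt2a*-HET (-0.50 ± 0.17). *Kcnj4*, an inward rectifier potassium channel, was at 2199 to 3787 in WT and 1775 to 2168 in *Kmt2a*-HET, and *Wasf1*, an activator of actin assembly, at 3300 to 5123 and 2856 to 3275, both without overlap. The groups overlapped in *Kcnh3*, *Icam5* and *Chrm1*. Without WT replicate 1 the log2 fold changes of these 3 genes were -0.32, -0.27 and -0.23, and those of *Kcnj4* and *Wasf1* -0.31 and -0.25, none past 0.005.

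Genes of postsynaptic scaffolds and of the actin cytoskeleton of spines, which hold receptors in place at excitatory synapses, were mostly lower in value in *Kmt2a*-HET. In this list 31 of 36 members had a negative log2 fold change, with a median of -0.14, against 56.1% of all genes tested with a negative value and a median of -0.04. At an unadjusted p under 0.05, 8 members were lower and none higher, where 1.77% of all genes were lower. These included the scaffold genes *Dlgap2* (1065 ± 186 in WT and 808 ± 35.3 in *Kmt2a*-HET) and *Dlg3* (4306 ± 351 and 3691 ± 214). The count of 8 became 4 without WT replicate 1, with a median of -0.08, and 13 without WT replicate 2. None passed the adjusted threshold. For DM over *Kdm5c*-KO amygdala 19 of the 36 members had a negative value and the median was -0.0072, and in the hippocampus of *Kmt2a*-HET over WT mice the median was 0.04. Markers of cell types also moved beside this list: 14 of 18 amygdala neuron markers had a negative log2 fold change (median -0.24), and 16 of 16 mature oligodendrocyte and 14 of 15 astrocyte markers a positive one (medians 0.35 and 0.12). Their part in the values of the list was not tested. With size factors from the ERCC spike-ins, which moved the median of all genes to 0.14, the median of the list was 0.03, or -0.11 relative to all genes.

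Receptor genes for the main transmitters held 1 member past p under 0.05. Of 25 glutamate receptor genes 1 was lower at p under 0.05, the kainate receptor subunit *Grik5* (9256 ± 2569 in WT and 7548 ± 168 in *Kmt2a*-HET), in which WT replicate 1 was at 13075 and the other WT libraries at 7494 to 8242. *Grin1*, the obligate subunit of NMDA receptors, was at 14391 to 16772 in WT and 13413 to 13658 in *Kmt2a*-HET, without overlap but not past 0.05. The medians of the glutamate receptor list and of the 23 genes of GABA synthesis, transport and reception were -0.03 and 0.03, and no GABA gene passed p under 0.05. The GABA median was -0.07 without WT replicate 1, and in the fits that left out a library up to 2 members were higher and up to 1 lower. For the glutamate receptors the count of lower members was 2 without WT replicate 1, with a median of -0.12, and 4 without WT replicate 2. The clustered protocadherins, cell surface proteins that give single neurons their identity, had 4 of 57 members lower at p under 0.05, among them *Pcdha5* (204 ± 48.8 in WT and 145 ± 18.2 in *Kmt2a*-HET), *Pcdhga2* and *Pcdhgc5*, and a median of -0.13, where 1.77% of all genes were lower. Without WT replicate 1 that count was 17 and the median -0.20, where 2.06% of all genes were lower in the same fit. Without WT replicate 4 it was 2, with a median of -0.04. Protocadherin transcripts within the alpha and within the gamma cluster share their last exons, so that the authors' counting could have divided reads among those members. This was not tested.

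Few neuropeptide genes and receptors linked to social behaviour passed p under 0.05, where 1.28% of all genes were higher. Of 22 neuropeptides, *Tac2* (neurokinin B, 183 ± 56.3 in WT and 253 ± 56.9 in *Kmt2a*-HET) and *Gal* (galanin, 144 ± 103 and 240 ± 11.6) were higher at an unadjusted p under 0.05. This count was 8 without WT replicate 2 and 1 without WT replicate 1, and the median of the list, 0.0067, was then 0.23 and 0.22. Without WT replicate 3 the median was -0.11. Of 26 receptors and enzymes linked to social behaviour and aggression, *Avpr1a*, the vasopressin 1a receptor, was higher at 7.91, 62.1, 28.03 and 33.5 in WT and 63.3, 48.5, 69.1 and 43.6 in *Kmt2a*-HET (0.77 ± 0.36). From 0 to 3 members of this list were higher when 1 library was left out. In *Gal* and *Avpr1a* WT replicate 1 was the lowest library and WT replicate 2 lay inside or above the *Kmt2a*-HET range. None of 25 activity-induced genes passed p under 0.05, and the smallest p was that of *Egr3* (1745 ± 411 in WT and 1295 ± 360 in *Kmt2a*-HET). Their median of -0.09 was 0.20 without WT replicate 1 and -0.32 without *Kmt2a*-HET replicate 1. In the fits that left out a library up to 2 of these genes were higher and up to 1 lower.

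In the fit to all 16 amygdala libraries, lists of partners and known targets of KMT2A held no member past p under 0.05. None of the 21 genes of its complex and of the other H3K4 methyltransferases, *Kmt2a* included, passed p under 0.05. Their median log2 fold change was 0.02, and the smallest p was 0.242 for *Hcfc2* (395 ± 34.0 in WT and 432 ± 23.9 in *Kmt2a*-HET). The largest log2 fold change in that list was 0.96 ± 1.91 for *Pagr1a*, which ranged from 0 to 68.0 in WT and from 2.66 to 151 in *Kmt2a*-HET. None of the 6 H3K4 demethylases passed either, with a median of -0.01 that was -0.14 without WT replicate 1. Of 24 homeobox and developmental regulators linked to KMT2A, 3 had no count in these 8 libraries, 22 were tested in the fit to all 16 amygdala libraries and none passed, with *Meis2*, a homeobox cofactor of HOX proteins, at 2434 ± 808 in WT and 1942 ± 252 in *Kmt2a*-HET (-0.33 ± 0.24). Without WT replicate 1, 1 of these regulators was lower at p under 0.05. The lowest value of that list, -0.80 ± 4.33 for *Hoxa7*, rested on 1 WT library at 0.956 and 0 in the other 7 libraries.

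Germline genes, which are normally silent in brain, were tested for 17 of 20 members, and 3 were lower at p under 0.05, where 1.77% of all genes were. Of the 20, 5 had no count in these 8 libraries, so some members tested in the fit to all 16 amygdala libraries had none in either group. The list median, such members included, was -0.35. Leaving out WT replicate 1 gave 1 lower member and a median of -0.18. The median was -0.10 without *Kmt2a*-HET replicate 1 and -0.54 without *Kmt2a*-HET replicate 2. Next to *Ddx4*, *Dazl* was lower at p under 0.05 (24.7, 23.3, 44.2 and 60.2 in WT and 26.9, 13.5, 15.96 and 21.3 in *Kmt2a*-HET). *Naa11* was lower as well, with 6.92 and 0.971 in 2 WT libraries and 0 in the other 6 libraries. *Tex14*, a germ cell gene that was high in every library without *Kdm5c* (88.8 to 162), was at 7.91 to 17.2 in WT and 9.03 to 26.9 in *Kmt2a*-HET, so the 8 libraries matched their *Kdm5c* label in this gene.

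**Figure D4:**
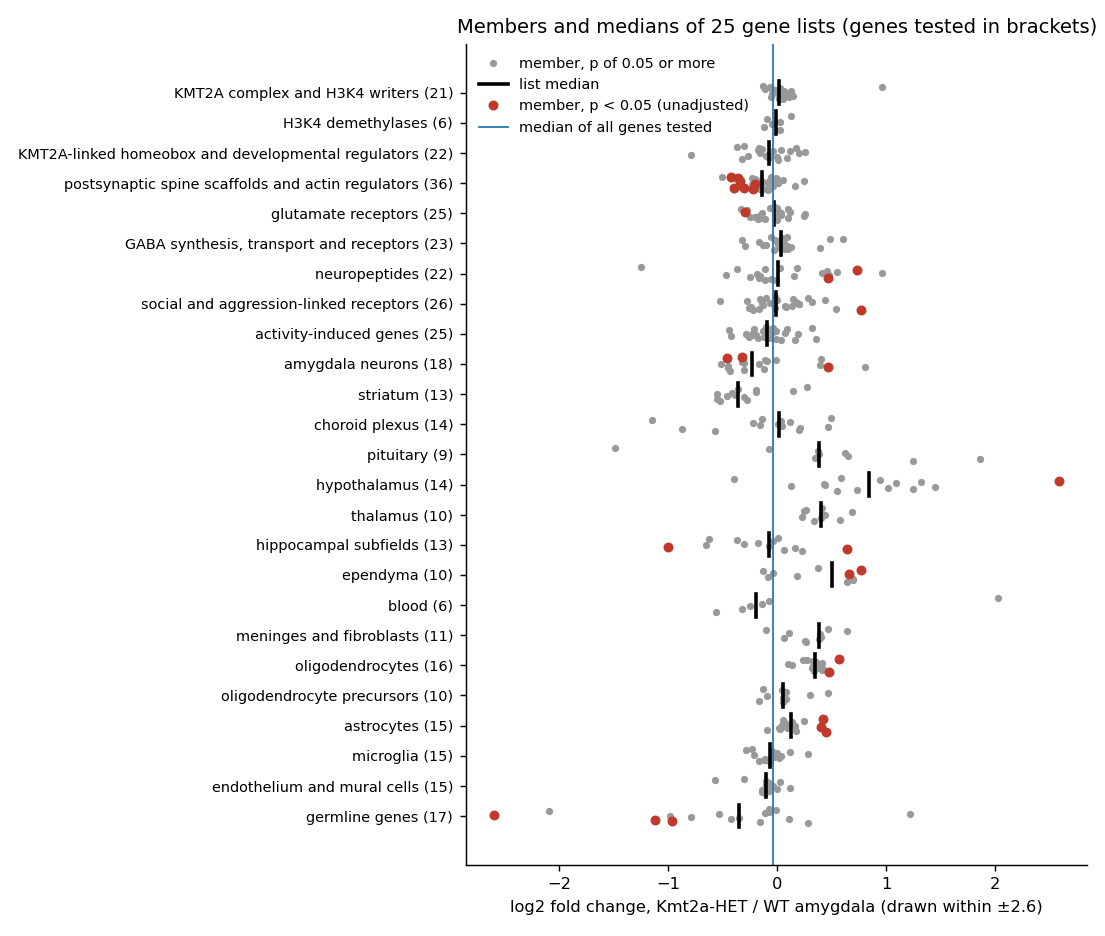
Log2 fold change of *Kmt2a*-HET over WT amygdala (horizontal axis, drawn within ±2.6) for each tested member of 25 gene lists, with the list median as a black bar and the median of all genes tested as a blue line. Members with an unadjusted p under 0.05 are in red. The postsynaptic median lies left of the median of all genes and the oligodendrocyte, thalamus and hypothalamus medians right of it. The protocadherin, ribosomal and respiratory lists are not drawn.

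Most markers of astrocytes and mature oligodendrocytes had positive log2 fold changes, and most markers of microglia negative ones. Of 15 astrocyte markers, 14 had a positive log2 fold change and 3 were higher at p under 0.05, *Gjb6*, *Gfap* and *Agt*, where 1.28% of all genes were higher. *Gfap*, the intermediate filament of astrocytes, was at 5492, 3923, 3969 and 3695 in WT and 6835, 5934, 5456 and 5056 in *Kmt2a*-HET (0.45 ± 0.14), with overlap through WT replicate 1. Without that library its log2 fold change was 0.59 ± 0.12 (unadjusted p = 1.41e-06 by DESeq2). *Agt*, angiotensinogen, was at 2274 to 3986 in WT and 4140 to 4353 in *Kmt2a*-HET, without overlap. The list median was 0.12, and its summed count was 120338 to 138131 in WT and 126241 to 137504 in *Kmt2a*-HET, so the total of these markers overlapped.

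All 16 markers of mature oligodendrocytes had a positive log2 fold change, with a median of 0.35. Where 1.28% of all genes were higher at p under 0.05, 2 of these markers were. These were *Fa2h*, which makes hydroxylated fatty acids of myelin (415, 754, 894 and 774 in WT and 1281, 915, 947 and 1043 in *Kmt2a*-HET), and *Mbp*, myelin basic protein (53697 ± 17614 and 74522 ± 10099). Without WT replicate 1, whose sum of these markers was the lowest of the 8, the median was 0.15 and 1 member passed. Without WT replicate 4 the median was 0.49 and 10 members were higher, and without WT replicate 3 it was 0.45 with 7. The shares of all genes higher in those fits are not given here. The part that oligodendrocyte content has in the values of *Padi2* was not tested. The 10 markers of oligodendrocyte precursors had a median of 0.05 and none passed, nor did any of the markers of microglia (15) or of endothelium and mural cells (15). In the microglia list 11 members had a negative log2 fold change, with a median of -0.07 that was 0.20 without WT replicate 1. In that fit 3 microglia markers were higher at p under 0.05, where 1.49% of all genes were. Of 10 ependymal markers *Hydin* and *Dnah11*, genes of motile cilia, were higher at p under 0.05 (log2 fold changes 0.66 and 0.77), and the sum of the ependymal list was 958 to 1147 in WT and 1004 to 1493 in *Kmt2a*-HET. That count of 2 ran from 0 to 4, and the list median from 0.25 to 0.62, when 1 library was left out.

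Markers of neighbouring regions varied widely between the WT libraries. The 14 hypothalamic markers summed to 2547, 7151, 4846 and 2338 in WT and 7318, 6275, 7396 and 5808 in *Kmt2a*-HET, and 13 of them had a positive log2 fold change, with a median of 0.84. *Hmx2*, a homeobox gene of hypothalamic neurons, was the member that was a 2A-DEG. It was at 0, 8.74, 5.39 and 1.91 in WT and 26.0, 23.7, 21.3 and 25.02 in *Kmt2a*-HET (2.59 ± 0.65), without overlap, and passed 0.005. All 10 thalamic markers had a positive log2 fold change (median 0.40, none with p under 0.05), and 11 of 13 striatal markers a negative one (median -0.36, none with p under 0.05). The thalamic sum was 3491 to 14079 in WT and 9057 to 12274 in *Kmt2a*-HET. The thalamic median was 0.08 without WT replicate 1 and 0.82, with 3 members higher at p under 0.05, without WT replicate 3. The striatal median was 0.05 without WT replicate 4, -0.61 without WT replicate 1 and -0.67 without *Kmt2a*-HET replicate 1. *Gal* and *Tac2* are also expressed in hypothalamus, and the part that tissue included at dissection has in their values was not tested. Of the 18 amygdala neuron markers, *Cdh9* (307 ± 69.3 in WT and 222 ± 15.7 in *Kmt2a*-HET) and *Wfs1* were lower and *Tac2* higher at p under 0.05, with a median of -0.24 that was -0.05 without WT replicate 1. Of 13 markers of hippocampal subfields, *C1ql2* was higher (275 ± 105 in WT and 427 ± 75.2 in *Kmt2a*-HET) and *Lct* lower (38.4 ± 22.8 and 19.2 ± 2.48) at p under 0.05. Over all genes 1.28% were higher and 1.77% lower at this threshold.

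Lists of other tissues and of housekeeping complexes held few members that differed. No member passed p under 0.05 among markers of choroid plexus (14), pituitary (9 tested of 10), blood (6) or meninges and fibroblasts (11), whose medians were 0.02, 0.38, -0.19 and 0.39. When 1 library was left out the choroid plexus median ran from -0.15 to 0.16, the pituitary median from -0.03 to 0.79 and the blood median from -0.36 to 0.15, the last without WT replicate 1, whose sum of blood markers was 13990 against 4672 to 7135 in the other 7 libraries. The meningeal median then ran from 0.18 to 0.42. Up to 2 members of the meningeal list, 1 of the pituitary list and 1 of the blood list in either direction then passed. None of 77 cytosolic ribosomal protein genes passed, with a median of -0.05 that was 0.15, with 4 members higher, without WT replicate 1. Of 73 nuclear-encoded genes of the respiratory chain, *Cox7a2*, a subunit of cytochrome c oxidase, was higher (973 ± 206 in WT and 1358 ± 148 in *Kmt2a*-HET), where 1.28% of all genes were higher. The list median was 0.0027, and 0.13 without WT replicate 1.

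The 2A-DEGs of the amygdala were then looked at in a pair of comparisons that did not choose them. In the hippocampus of the same mice, which shares the animals but not the libraries, 59 of the 86 genes with an estimate had the same sign as in the amygdala (68.6%, against 53.3% of all genes). The median log2 fold change there was -0.07 for the 59 lower genes and 0.22 for the 27 higher ones. At an unadjusted p under 0.05 in the hippocampus, where 2.40% of all genes passed, there were 11 of the 86 genes, and 10 of them had the same sign: *Cd38*, *Ddx4*, *Filip1*, *Kcnh3*, *Lzts1*, *Padi2*, *Slc38a2*, *Tcfl5*, *Gm44677* and *Gm48700*. *Sept2* had the opposite sign. No gene passed an adjusted p of 0.1 in the hippocampus, where the edgeR test called none either. Without WT replicate 1 of the amygdala, the share with the same sign was 54.8% of 93 genes, against 48.2% of all genes.

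In the hippocampus *Filip1* was at 485, 552, 562 and 424 in WT and 244, 258, 370 and 491 in *Kmt2a*-HET (log2 fold change -0.57 ± 0.19), so that 3 of 4 *Kmt2a*-HET libraries lay below every WT library. *Cd38*, the main NAD-consuming ectoenzyme of brain, was at 19.8, 105, 113 and 92.7 in WT amygdala and 162, 159, 145 and 160 in *Kmt2a*-HET amygdala, and at 101, 90.1, 127 and 52.6 against 144, 124, 132 and 152 in the hippocampus (0.59 ± 0.20). The hippocampal groups of *Cd38* overlapped by 1 library. *Slc38a2*, an amino acid transporter, did not overlap in the hippocampus, at 1796 to 1876 in WT and 1972 to 2446 in *Kmt2a*-HET.

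The second comparison, DM against *Kdm5c*-KO amygdala, measures loss of 1 *Kmt2a* copy in mice that lack *Kdm5c*, in 8 libraries of other animals. Here 34 of the 87 2A-DEGs kept their sign (39.1%, against 47.9% of all genes tested). When 1 library was left out this share moved both down and up, past 47.9% in at least 1 fit, with the range given in the last section. The median log2 fold change was 0.07 for the 59 lower genes and 0.10 for the 28 higher genes. *Filip1* counts were 650, 744, 786 and 1025 without *Kdm5c* alone and 810, 919, 641 and 703 in DM (-0.06 ± 0.16), and *Gjb6* and *Me3* had log2 fold changes of 0.09 and 0.02, neither past 0.05. Of the 87 genes, 3 had p under 0.05, where 2.29% of all genes did: *Dcdc5* and *2600006K01Rik* with the same sign and *Hmx2* with the opposite sign. The DM libraries differed in markers of the choroid plexus, the epithelium that secretes cerebrospinal fluid: the 14 markers summed to 46227, 1585, 9070 and 1236 in DM and to 1235 to 2078 in the single *Kdm5c* mutant, with a median log2 fold change of 3.12. DM replicates 1 and 3 stood apart from the other 6 libraries. Without them, an alternative chosen after seeing the data, 27 of the 87 2A-DEGs kept their sign (31.0%, against 45.7% of all genes tested).

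**Figure D5:**
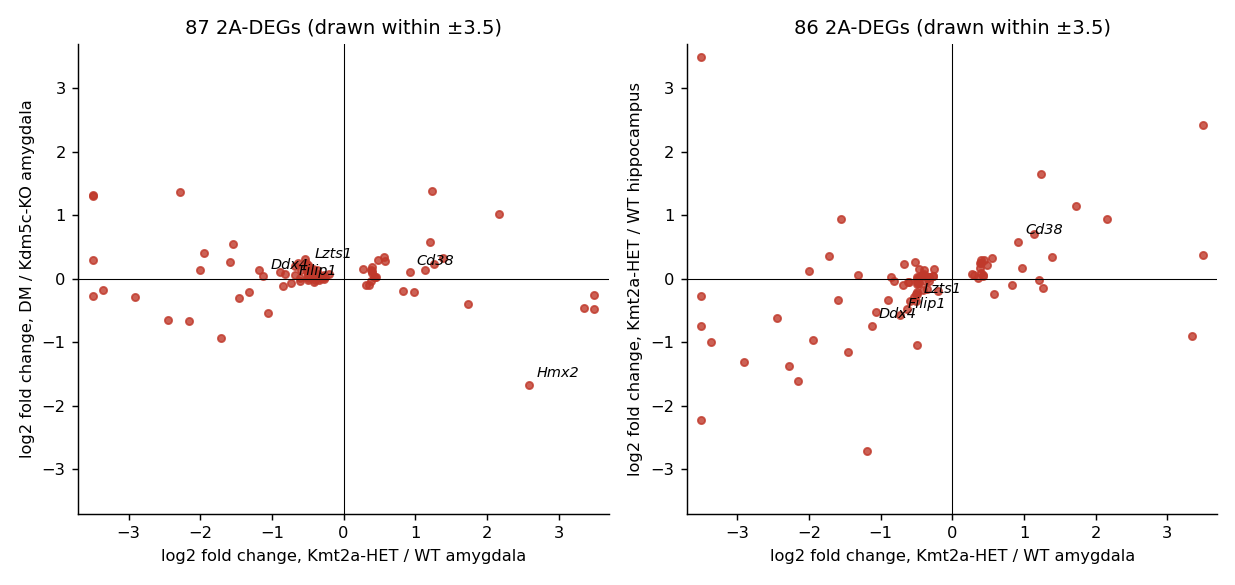
Log2 fold changes of the 2A-DEGs in *Kmt2a*-HET over WT amygdala (horizontal axes) against those in DM over *Kdm5c*-KO amygdala (left, 87 genes) and in *Kmt2a*-HET over WT hippocampus (right, 86 genes), all drawn within ±3.5. On the left 34 genes and on the right 59 genes lie in the quadrants of equal sign.

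The difference between the effects was tested directly. Between the intact and the *Kdm5c*-null background, the log2 fold change for *Kmt2a* loss differed at an adjusted p of 0.1 in 1 gene of 30355 (0.00329%, with 857 genes or 2.82% at an unadjusted p under 0.05), which was *Hmx2*. *Hmx2* counts were 26.1, 29.4, 40.6 and 10.6 in the single *Kdm5c* mutant and 6.89, 11.8, 0.995 and 14.0 in DM, the reverse of the order between WT and *Kmt2a*-HET, and the difference of the effects was -4.25 ± 0.88 (adjusted p = 0.0429 by DESeq2). In the list of 14 hypothalamic markers, *Hmx2* included, 13 had a positive log2 fold change for *Kmt2a*-HET over WT and 13 a negative one for DM over *Kdm5c*-KO, with medians of 0.84 and -0.73, and the difference of the effects had an unadjusted p under 0.05 in 5 of them. Their summed count was 7574, 8565, 7208 and 4715 in the single *Kdm5c* mutant and 2838, 2771, 2733 and 8994 in DM. Of the 14 choroid plexus markers, whose medians were 0.02 for *Kmt2a*-HET over WT and 3.12 for DM over *Kdm5c*-KO, 12 had an unadjusted p under 0.05 for that difference. Without DM replicates 1 and 3 the difference for *Hmx2* was -3.64 ± 0.83 (adjusted p = 0.393 by DESeq2) and no gene was called, with 571 genes (1.90%) at an unadjusted p under 0.05 by DESeq2. The part of these shifts of regional markers in the value of *Hmx2* was not tested. The edgeR test called no gene, *Hmx2* included (unadjusted p of 0.000257), with 665 at an unadjusted p under 0.05. For *Filip1* the difference was 0.67 ± 0.23, past an unadjusted 0.005 but not the adjusted threshold. This test reuses the *Kmt2a*-HET over WT value by which *Filip1* was chosen, so it gives no independent support. Between hippocampus and amygdala the effect differed in 1 gene of 32039 (0.00312%, with 570 genes or 1.78% at an unadjusted p under 0.05), *Sh2d1a*. Its count was 0 in every *Kmt2a*-HET hippocampal library and in some WT libraries of both regions. With mouse as a block, since both regions came from the same mice, no gene was called. The edgeR test called none here either, with 406 genes at an unadjusted p under 0.05. For *Filip1* the difference between regions was 0.16 ± 0.26, not past 0.05.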

How the data were processed

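Amygdala mRNA of 4 *Kmt2a*-HET and 4 WT mice was compared. The authors added ERCC spike-in RNA, made directional oligo-dT libraries, and mapped paired-end reads to mm10 with STAR (v2.5.3a); duplicates were removed, and FeatureCounts (Subread v1.5.0) and DESeq2 (v1.14.1) were used, per the submitters' processing notes. The deposited tables hold expected counts, which need not be whole; the estimator and annotation release are not given in the sources used here. Values were rounded to whole numbers, and 92 ERCC rows were left out. Symbols for 53620 of 53715 genes came from GENCODE M21 (mm10), also the source of coordinates and exon sequence.

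DESeq2 (v1.42.0, R v4.3.3, Wald test, Benjamini-Hochberg) was fitted to all 16 amygdala libraries with genotype as the term and WT as reference; genes with p under 0.005, the study's relaxed threshold, are 2A-DEGs, and 19 of 30374 genes with counts got no p because of an outlying count. All p-values are unadjusted unless called adjusted. The hippocampus and the difference between regions were fitted likewise, and edgeR (v4.0.16) was an alternative. Permutation tests ran over log2(normalised count + 1) of 8 libraries, with 0.0286 as the smallest p possible. The genes described were *Kmt2a*, genes with adjusted p under 0.1, of 2A-DEGs with a named symbol, a mean of at least 20 and no overlap between groups the 12 lower and 8 higher with smallest p, and the 3 members of smallest p of each of 28 gene lists; not every gene so selected is reported here, but all stay in the counts. The members and lists were chosen with earlier results of these data known. The fit was checked on simulated counts. Depth limits counting error only: a count of 3, taken as the floor, is 0.115 to 0.150 CPM here. Replicates are the 4 mice of a group. Replicate numbers did not pair the libraries (correlations of deviations between same-numbered WT and *Kmt2a*-HET libraries of 0.300, 0.0502, -0.0429 and 0.108).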

Additional observations from a re-analysis of the deposited data

Results flagged for a closer look

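Among 56 groups of 4 values examined for a single value far from the other 3, 4 were found, and chance gives about 1 in 20 such groups. *Ddx4* in WT amygdala was at 113 in replicate 1. *Lrig1* in WT amygdala was at 1530 in replicate 1, below the other 3. *Padi2* in *Kmt2a*-HET amygdala was at 2324 in replicate 2, above the other 3. The share of counts on ERCC sequences in *Kmt2a*-HET amygdala was 0.286% in replicate 3.

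A pair of genes had a *Kmt2a*-HET effect that differed between conditions by a test of the difference. *Hmx2* differed between the intact and the *Kdm5c*-null amygdala, by -4.25 on the log2 scale, with the libraries given above. The 14 hypothalamic markers, which include *Hmx2*, had a median log2 fold change of 0.84 for *Kmt2a*-HET over WT and of -0.73 for DM over *Kdm5c*-KO, and without DM replicates 1 and 3 the difference for *Hmx2* was -3.64 and not called. *Sh2d1a*, an adaptor protein of lymphocytes, differed between hippocampus and amygdala by -17.1 on the log2 scale (adjusted p = 0.00176 by DESeq2), a value that is not determined by the data. It was at 118, 0, 0 and 14.3 in WT amygdala, 34.7, 11.3, 2.66 and 4.63 in *Kmt2a*-HET amygdala, 6.75, 0.959, 0 and 0.849 in WT hippocampus and 0 in all 4 *Kmt2a*-HET hippocampal libraries. Neither the edgeR test nor the fit with mouse as a block called it.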

How the results depend on the processing

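The count of genes past an adjusted p of 0.1, 1 by the fit described, was 0 with edgeR, 0 with ERCC size factors, 2 with a filter of 10 counts in 4 libraries, 2 with the 8 libraries alone, 0 with edgeR and the replicate block, 0 without both libraries numbered 1, and 0 to 82 when 1 library was left out. With the replicate block in DESeq2 it was 300, although the numbers do not pair the libraries, and 1 of 4 WT libraries correlated best with the *Kmt2a*-HET library of its own number. With genotype levels in alphabetical order, an alternative chosen after seeing the data, it was 3 (*Yy2*, *Filip1* and *E130208F15Rik*); the last had counts in 1 *Kmt2a*-HET library and in no WT library, so its fold change is not determined. The 87 2A-DEGs became 38 with edgeR, 7 with ERCC size factors, 434 with the replicate block, 49 with edgeR and the block, 50 without both libraries numbered 1, and 46 to 313 when 1 library was left out. The 38 of edgeR included 36 of the 87. ERCC size factors moved the median of all genes to 0.14.

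The share of 2A-DEGs with the same sign in DM against *Kdm5c*-KO was 24.3% to 56.3% when 1 library was left out, and in the hippocampus 54.8% to 82.2%, and 83.3% of 6 genes with ERCC size factors. Calls in the test between *Kdm5c* backgrounds were 190 with the replicate block, 0 with edgeR and 0 without DM replicates 1 and 3, and in the test between regions 0 with mouse as a block and 0 with edgeR. *Kmt2a* was at -0.13 without both libraries numbered 1 and at -0.20 to 0.19 when 1 library was left out. The 21 other genes selected kept their side of the threshold in 198 of 336 combinations of gene and alternative. Their direction held in all 336, which groups without overlap largely fix in advance. The cause of these changes was not tested.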
